A study of Homo sapiens with 6 samples.

Results

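The MAP kinases and protein phosphatases described here are 87 of the 5117 genes in a deposited table of raw counts, chosen by symbol: those that begin with MAPK, MAP2K, MAP3K, MAP4K, DUSP and a digit, PPP1 to PPP6, PTPN, PTPR, PPM1 or SPRED. They are 22 kinases of the MAP kinase tiers, 1 kinase activated by MAP kinases, 5 scaffolds and other genes with a MAPK name, 3 dual-specificity phosphatases, 45 serine/threonine phosphatases and their subunits, 10 tyrosine phosphatases and the inhibitor SPRED1. GENCODE release 29 holds 209 protein-coding genes whose names match. The other 122, among them MAPK8, MAP2K1, MAP2K4, DUSP1, DUSP6, PTPN1, PPP2R2A and SPRED2, were not analysed here.

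The RNA came from HMC3, an established human microglial cell line labelled genotype WT. In 3 libraries the cells had received CM with C1s (C1s-CM), and in 3 libraries CM without C1s (control CM, titled FLAG); the labels do not spell out CM and state no dose or time. C1s, a protease, acts early in the classical arm of complement, and by its title the series concerns mesenchymal glioblastoma and how microglial metabolism relates to immunosuppression there. Separate cultures are not recorded for the libraries of a group, and p-values here reflect a spread that may be technical.

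The table holds only genes that had passed the authors' adjusted p of 0.05 in this same comparison. Every member therefore had to differ between the groups, and counts of members called are descriptions, not evidence. Column totals were 12730766 to 14961744 counts, a part of each library, and values below are normalised read counts (CPM), relative to these totals after TMM scaling. Replicate libraries differed from each other by more than sampling noise, with a chi-square of 2.02 to 4.96 per degree of freedom. None of 10 microglial markers looked for has a row, so the cell type could not be checked on them, and of 6 pericyte or fibroblast markers 3 have one, COL1A1 with 49853 to 54676 counts among them. In such bulk RNA, fewer cells of a type and less RNA per cell cannot be told apart.

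MAP kinases are the last step of a relay in which each kinase phosphorylates the next: a MAP4K or a small GTPase activates a MAP3K, which activates a MAP2K, which activates ERK, JNK or p38. Phosphatases reverse these steps. Dual-specificity and tyrosine phosphatases remove phosphate from the activation loop of MAP kinases and from receptors, while serine/threonine phosphatases of the PPP family gain their targets through regulatory subunits that join a small set of catalytic ones. In microglia and macrophages the stress arms, p38 and JNK, are known for relaying inflammatory signals to cytokine genes.

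All 87 members passed adjusted p 0.05 in edgeR's quasi-likelihood test, beside 99.4% of all genes tested. Of these, 44 were higher in C1s-CM and 43 lower, where 50.9% of all genes were called higher and 48.5% lower. The rises were small, with a median of 0.24 on the log2 scale and none of 1.5-fold or more (0.841% of all genes), and the falls were larger, with a median of -0.47. A fall of at least 1.5-fold was found for 10 members, or 11.5%, against 12.3% of all genes. The median of the members was 0.065 and their median absolute change 0.30, against 0.080 and 0.31 over all genes tested. In CPM the C1s-CM and control libraries were apart for 86 members, the exception being PPP1R35, and for 97.2% of all genes. Separation of single members, given below, is to be read beside that share. With total counts as the only scaling, which shifts the median of all genes by -0.13, 20 members were called higher and 44 lower (31.3% of calls higher against 50.6%), where 75.3% of all genes were called, 26.1% higher and 49.2% lower. MAP4K2, PPP5C, PPP1R18, PPM1G and PTPRF then changed sign.

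**Figure D1:**
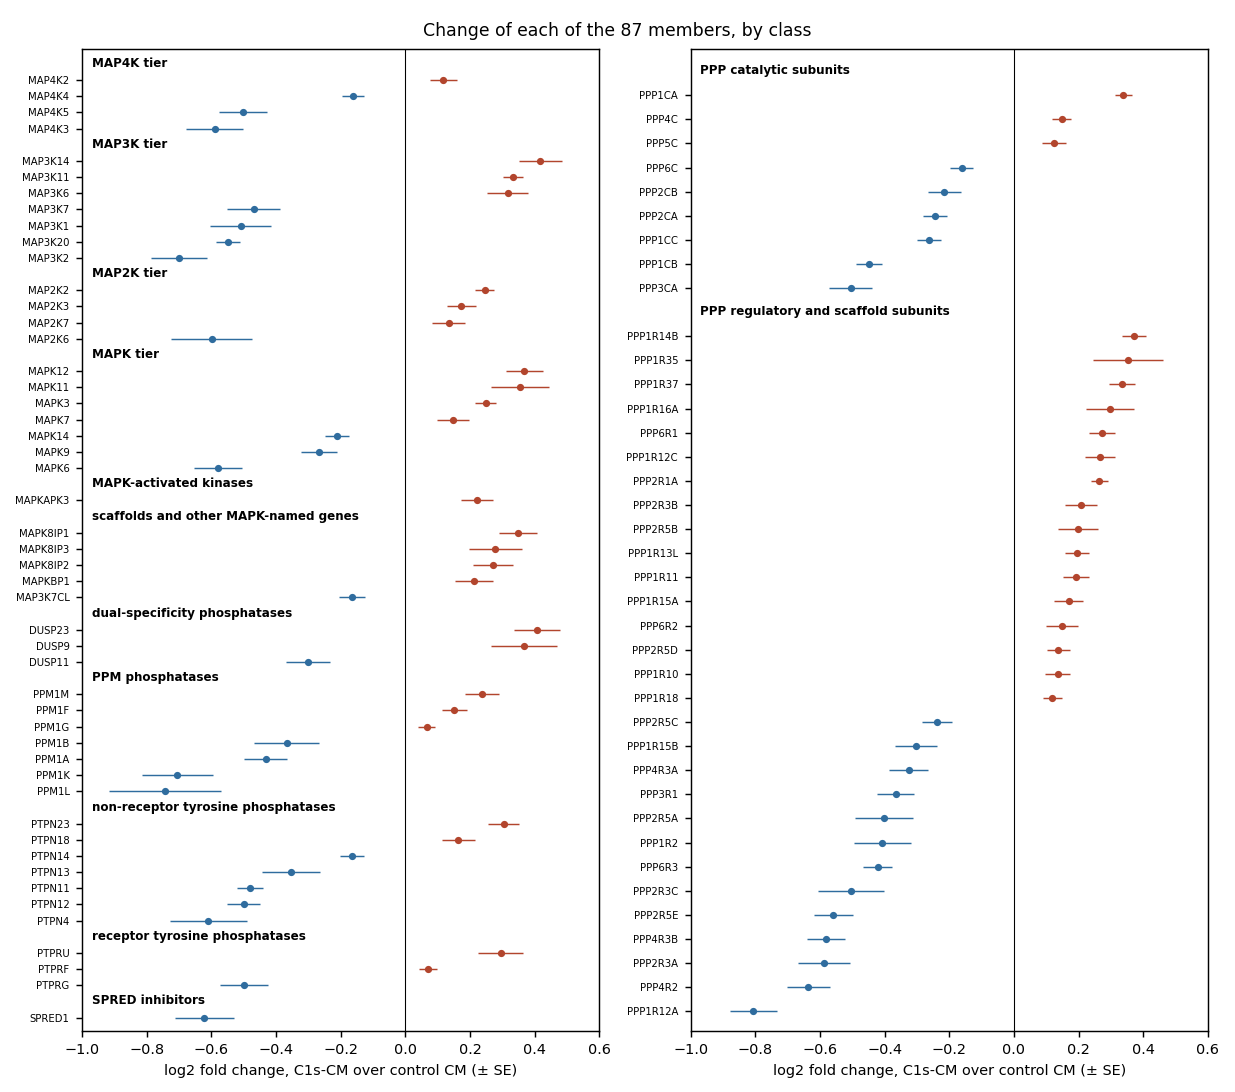
Log2 fold change of C1s-CM over control CM for each of the 87 members, grouped by class; points are edgeR estimates with TMM scaling, bars their standard error, red above 0 and blue below. Most classes hold both rises, up to 0.42 for MAP3K14, and falls, down to -0.81 for PPP1R12A, and 5 of the smallest rises change sign under total-count scaling.

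The direction of every member matched the GC content of its representative transcript. The 44 members that rose had transcripts of 52.0 to 68.0% GC (median 61.7%), and the 43 that fell 35.3 to 49.5% (median 40.8%), so the ranges did not overlap. Over all genes with a GC value, 98.0% of those with at least 50% GC were higher and 6.1% of those below it. With the longest transcript of each gene, 1 member that rose was below 50%. Across the 87 members, which are not independent replicates and share the 6 libraries, the log2 fold change followed transcript GC content with a Spearman's rho of 0.89 and transcript length with -0.52, against 0.85 and -0.55 over all genes.

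Inside the coding sequence GC content also followed the change, but the ranges of risen and fallen members overlapped. At the third codon position, where most changes leave the encoded amino acid as it is, the members that rose had a median of 77.4% GC and those that fell 41.1% (rho 0.84). The 3' untranslated parts had medians of 57.0% and 34.1% GC (rho 0.77) and of 679.5 and 2435 bases. Coding length did not follow the change among the members (rho -0.033), while over all genes with a value rho was -0.30. Promoters, taken from RefSeq as 250 bases before to 50 bases after the gene's start and matched by symbol for 78 members, had medians of 71.2% and 68.7% GC and 31.5 CpG sites in both sets, and rho was 0.18. Over all genes with a value, rho was 0.81 for the third codon position, 0.79 for 3' untranslated GC content and 0.13 for promoter GC content. Whether GC content plays a part in any change below was not tested. Values with per-library corrections for transcript GC content and length, called offsets, are given beside each class. Only genes the authors had called entered the fit of the offsets, which would also remove a biological difference that follows GC content.

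**Figure D2:**
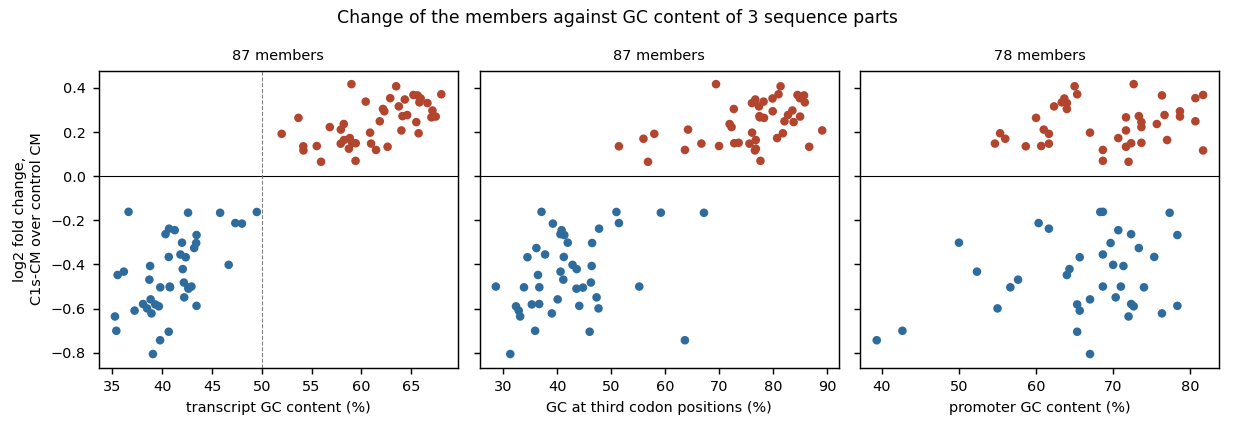
Log2 fold change of C1s-CM over control CM against the GC content of the whole transcript, of the third codon position and of the promoter; each point is a member, red where it rose and blue where it fell. Transcript GC content splits the directions at 50%, the third codon position overlaps between 51.4% and 67.1%, and promoter GC content overlaps over most of its range.

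At the top of the cascade, 1 of 4 MAP4K members rose and 3 fell (median -0.33). MAP4K3, which is known for activating the JNK arm and mTORC1 signalling, had 22.99, 17.8 and 19.9 CPM in C1s-CM and 33.05, 29.9 and 28.4 CPM in control CM. MAP4K5, a germinal centre kinase of the same arm, had 22.5, 22.4 and 21.01 and 31.8, 31.8 and 30.004 CPM. All C1s-CM libraries lay below all control libraries for both, with log2 fold changes of -0.59 ± 0.089 (SE) and -0.50 ± 0.074. MAP4K4, a kinase of cell migration and stress signalling, fell by 0.16, and MAP4K2 rose by 0.12, which turned to -0.0088 under total-count scaling. With offsets the median was -0.065 and MAP4K4 alone was called, at -0.14, but it turned to 0.068 with the longest transcript, where it missed the threshold.

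The MAP3K tier was divided, with 3 rises and 4 falls (median -0.47). MAP3K14, the NF-kB inducing kinase NIK of the noncanonical NF-kB pathway, showed the largest rise of any member, from 38.9, 39.8 and 34.9 CPM in the control libraries to 46.6, 53.8 and 51.2 CPM in C1s-CM. Its log2 fold change was 0.42 ± 0.066 (SE, adjusted p = 4.16e-06, edgeR) and remained past the threshold with offsets, at 0.20 ± 0.065 (adjusted p = 0.0256). MAP3K11, the mixed-lineage kinase MLK3 upstream of JNK, had 231, 233 and 236 CPM against 182, 186 and 189 CPM and a change of 0.33 ± 0.031. MAP3K6, an ASK family kinase, rose by 0.32. With offsets MAP3K11 was 0.053 and MAP3K6 0.060, and neither was called. With the longest transcript MAP3K11 was called, at 0.11, and MAP3K6 was not.

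The MAP3K members that fell included kinases of both stress arms. MAP3K2, the kinase MEKK2 upstream of ERK5 and JNK, had 19.3, 16.9 and 16.2 CPM in C1s-CM against 26.4, 29.6 and 28.98 CPM, a change of -0.70 ± 0.086 and the largest fall of the kinases. MAP3K20, the ribotoxic stress kinase ZAK, had 134, 128 and 128 CPM against 182, 199 and 192 CPM, a change of -0.55 ± 0.037. MAP3K1, the kinase MEKK1, had 12.3, 13.04 and 13.3 CPM against 17.8, 19.7 and 17.5 CPM, and MAP3K7, the kinase TAK1 that relays cytokine and Toll-like receptor signals, fell by 0.47. None of these 4 overlapped between the groups, as was so for 97.2% of all genes. With offsets the median of the tier was 0.053. MAP3K20 was called at -0.16 with the representative transcript and missed the threshold at -0.035 with the longest. MAP3K2 (-0.033), MAP3K1 (-0.082) and MAP3K7, which turned to 0.062, were not called.

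In the MAP2K tier 3 members rose and 1 fell (median 0.15). MAP2K2, the kinase MEK2 that activates ERK, rose from 350.4, 328 and 342 CPM in the control libraries to 414, 395 and 401 CPM in C1s-CM, a log2 fold change of 0.25 ± 0.030. MAP2K3 and MAP2K6 are the closely related kinases MKK3 and MKK6, which both activate p38. MAP2K3 had 91.5, 88.7 and 89.2 CPM against 82.5, 77.5 and 79.1 CPM and rose by 0.17, and MAP2K6 had 7.69, 7.71 and 8.23 CPM against 13.1, 9.91 and 12.8 CPM and fell by 0.60. MAP2K7, the JNK kinase MKK7, rose by 0.13. Under total-count scaling MAP2K3 (0.047) and MAP2K7 (0.0077) missed the threshold. With offsets the median was -0.057, all 4 values lay between -0.12 and -0.021, and none was called.

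The coding sequences of MAP2K3 (chr17:21284672-21315240, plus strand, GRCh38) and MAP2K6 (chr17:69414698-69553861, plus strand) show how near such paralogs are. Over 333 aligned codons they encode the same amino acid at 268, and at 136 of these the codons differ; MAP2K3 has the codon with more G and C at 97 and MAP2K6 at 14. The first 20 codons of their longest run of identical residues are printed below from GENCODE transcripts, codons 123 to 142 of MAP2K3 and 112 to 131 of MAP2K6, 5′ to 3′, with the bases that differ in capitals.
MAP2K3: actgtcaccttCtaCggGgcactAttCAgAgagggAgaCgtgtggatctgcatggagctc
MAP2K6: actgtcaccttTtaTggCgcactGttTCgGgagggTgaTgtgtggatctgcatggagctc
These stretches differ little in GC content, with 55% in MAP2K3 and 53.3% in MAP2K6. At the third codon position GC content was 80.7% over the whole coding sequence of MAP2K3 and 47.6% over that of MAP2K6.

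In the MAPK tier itself 4 members rose and 3 fell (median 0.15). The p38 kinases were divided. MAPK14, p38 alpha, had 129, 127 and 136 CPM in C1s-CM against 154, 150.2 and 149.7 CPM and fell by 0.21. MAPK11, p38 beta, had 21.8, 21.2 and 19.6 CPM against 17.4, 16.4 and 15.3 CPM and rose by 0.35. MAPK12, p38 gamma, had 51.1, 48.2 and 52 CPM against 38.7, 38.7 and 39.8 CPM and rose by 0.37. The groups did not overlap for any of the 3, nor for 97.2% of all genes. MAPK3, the kinase ERK1, rose by 0.25 and MAPK7, ERK5, by 0.15, while MAPK9, the kinase JNK2, fell by 0.27. MAPK6, the atypical kinase ERK3, showed the largest fall of the tier, from 35.9, 35.2 and 41.6 CPM in the control libraries to 25.1, 25.7 and 24.8 CPM in C1s-CM (-0.58 ± 0.075); GENCODE holds 6 pseudogenes named after it, which makes its count uncertain. With offsets the median was -0.021, the 7 values lay between -0.091 and 0.094, and none was called; MAPK7 had already missed the threshold under total-count scaling (0.022).

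MAPK11 (chr22:50263713-50270767, minus strand, GRCh38) and MAPK14 (chr6:36027677-36111236, plus strand) share 40 identical residues in a row around the activation loop. The 20 codons below, codons 178 to 197 of both, include the threonine-glycine-tyrosine motif at codons 180 to 182 that MAP2K3 and MAP2K6 phosphorylate, and the 9 bases that differ are in capitals.
MAPK11: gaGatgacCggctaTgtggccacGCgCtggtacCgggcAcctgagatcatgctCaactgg
MAPK14: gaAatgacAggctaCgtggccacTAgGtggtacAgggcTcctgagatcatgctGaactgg
Of 268 codons for the same amino acid in both kinases, 151 differ, and MAPK11 has the codon with more G and C at 115 of them and MAPK14 at 14.

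Both genes start in a promoter rich in CpG sites. The RefSeq sequences (GRCh38.p14) are printed in the direction of transcription with each CG in capitals, MAPK11 from chr22:50270331-50270630 on the minus strand and MAPK14 from chr6:36027558-36027857 on the plus strand.
MAPK11: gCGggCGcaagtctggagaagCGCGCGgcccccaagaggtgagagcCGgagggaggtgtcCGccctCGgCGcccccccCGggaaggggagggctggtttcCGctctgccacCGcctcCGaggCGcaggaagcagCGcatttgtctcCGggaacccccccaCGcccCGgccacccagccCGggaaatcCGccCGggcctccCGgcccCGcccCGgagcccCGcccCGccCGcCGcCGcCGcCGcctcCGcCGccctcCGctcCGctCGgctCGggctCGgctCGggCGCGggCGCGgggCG
MAPK14: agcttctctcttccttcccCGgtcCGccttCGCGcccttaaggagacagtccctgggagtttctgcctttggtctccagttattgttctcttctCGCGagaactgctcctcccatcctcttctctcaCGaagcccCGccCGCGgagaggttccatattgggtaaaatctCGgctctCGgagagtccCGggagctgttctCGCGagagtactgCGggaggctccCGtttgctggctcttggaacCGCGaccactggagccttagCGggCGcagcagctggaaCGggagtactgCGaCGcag
The p38 beta promoter has 80.7% GC and 44 CG pairs and that of p38 alpha 60.3% GC and 24. At least 1 CG pair is found in 96.04% of all RefSeq promoters of this length.

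Genes around the kinases were mostly higher. MAPKAPK3, a kinase activated by p38, had 79.4, 73.8 and 74.5 CPM in C1s-CM and 62.5, 66.7 and 65.8 CPM in control CM, a rise of 0.22. The JNK-interacting scaffolds rose together: MAPK8IP1 had 54.5, 49.3 and 50.9 CPM against 41.2, 40.8 and 39.5 CPM (0.35 ± 0.059), MAPK8IP2 rose by 0.27 and MAPK8IP3 by 0.28. MAPKBP1, a JNK-binding scaffold, rose by 0.21, and MAP3K7CL, named for its likeness to the C-terminal part of TAK1, fell by 0.17. The C1s-CM and control libraries did not overlap for any of these 6 genes, nor for 97.2% of all genes. Under total-count scaling MAPKAPK3, MAPK8IP3 and MAPKBP1 missed the threshold, and with offsets none of the 6 was called.

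Of the dual-specificity phosphatases, 3 of 24 in GENCODE have a row. DUSP9, the ERK phosphatase MKP-4, had 21.2, 17.6 and 18.1 CPM in C1s-CM against 12.7, 15.9 and 15.5 CPM in control CM and rose by 0.37. DUSP23, a small phosphatase without a MAP kinase docking domain, had 32.3, 32.4 and 30.9 CPM against 24.2, 23.6 and 24.2 CPM and rose by 0.41. DUSP11, which acts on the 5′ triphosphate of RNA rather than on MAP kinases, had 29, 29.4 and 31.4 CPM against 35.6, 38.1 and 37.1 CPM and fell by 0.30. The groups were apart for all 3, as for 97.2% of all genes. With offsets the changes were 0.076, 0.069 and -0.047, and none was called.

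SPRED1, which restrains RAS by bringing neurofibromin to it, fell from 21.3, 23.4 and 20.1 CPM in the control libraries to 13.5, 13.9 and 14.7 CPM in C1s-CM. Its log2 fold change was -0.62 ± 0.092 (SE, adjusted p = 1.62e-06, edgeR), with all 3 C1s-CM libraries below all 3 controls, and -0.074 with offsets, where it was not called. Its transcript has 38.9% GC.

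Among the PPP catalytic subunits 3 rose and 6 fell (median -0.21), and the genes for PP1 went opposite ways. PP1 is a broad phosphatase with 3 nearly identical catalytic subunits. PPP1CA, PP1 alpha, had 850.1, 842 and 831 CPM in C1s-CM against 683, 655 and 658 CPM in control CM, a log2 fold change of 0.34 ± 0.027 (adjusted p = 1.24e-10, edgeR). PPP1CB, PP1 beta, had 122, 115 and 116 CPM against 156, 168 and 157 CPM, a change of -0.45 ± 0.039. PPP1CC, PP1 gamma, had 146, 155 and 156 CPM against 176, 186 and 186 CPM, a change of -0.26 ± 0.036. Every C1s-CM library lay above the controls for PPP1CA and below them for PPP1CB and PPP1CC. Per kilobase of transcript, PPP1CA had the highest level of all members, 569.8 CPM per kilobase in C1s-CM and 451 in control CM.

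The PP1 genes lie at chr11:67398183-67421183 (PPP1CA, minus strand), chr2:28751640-28802940 (PPP1CB, plus strand) and chr12:110719680-110742939 (PPP1CC, minus strand) on GRCh38. The alpha and beta forms share 89.9% of residues over 326 aligned codons and 72.8% of coding bases, and alpha and gamma share 93.8% and 75.0% over 321 codons. The first 20 codons of the longest run that is identical in all 3 proteins, 58 residues, are printed with the 14 positions that differ between any of them in capitals.
PPP1CA: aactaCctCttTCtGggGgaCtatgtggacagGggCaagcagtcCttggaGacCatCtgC
PPP1CB: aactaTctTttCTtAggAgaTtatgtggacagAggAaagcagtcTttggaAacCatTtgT
PPP1CC: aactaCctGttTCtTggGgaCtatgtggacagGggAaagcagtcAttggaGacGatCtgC
These stretches encode the same 20 amino acids with 55%, 36.7% and 50% GC. Of 185 codons that differ while encoding the same residue in PPP1CA and PPP1CB, PPP1CA has more G and C at 149 and PPP1CB at 13.

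The other catalytic subunits moved less, apart from calcineurin. PPP2CA and PPP2CB, the PP2A catalytic subunits, both fell: PPP2CA had 109.5, 109 and 110.5 CPM against 131, 129 and 131 CPM (-0.24 ± 0.037) and PPP2CB 52.4, 57.1 and 53.99 CPM against 63.7, 62.3 and 63.8 CPM (-0.21 ± 0.052). PPP3CA, a catalytic subunit of the calcium-dependent phosphatase calcineurin, had 42.9, 40.4 and 37.9 CPM against 51.4, 60.8 and 59.7 CPM and fell by 0.50; its regulatory subunit PPP3R1 fell by 0.37. PPP6C, the PP6 catalytic subunit, had 138, 143 and 133 CPM against 152, 156 and 155 CPM and fell by 0.16. PPP4C rose by 0.15 and PPP5C, a phosphatase with its own regulatory domain, by 0.12, both short of the threshold under total-count scaling (0.022 and -0.0011).

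With offsets 6 of the 9 catalytic subunits were called in the direction opposite to that without, where 10.9% of all genes and 12 of the 87 members were. PPP6C turned from -0.16 to 0.40 ± 0.036 (adjusted p = 1.39e-08, edgeR), the largest offset value of any member, and was 0.34 with the longest transcript. PPP2CA turned to 0.20, PPP1CB to 0.17 and PPP1CC to 0.13, and PPP4C to -0.10 and PPP5C to -0.10. With the longest transcript PPP1CC was -0.036 and PPP5C -0.073, and neither passed the threshold. PPP2CB kept its direction and call, at -0.18 and -0.29. PPP1CA, at 0.063, had an adjusted p of 0.0535 in edgeR. PPP3CA was -0.11, and -0.15 with the longest transcript, and was called in neither. The calcineurin regulatory subunit PPP3R1 turned to 0.051 and was not called.

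**Figure D3:**
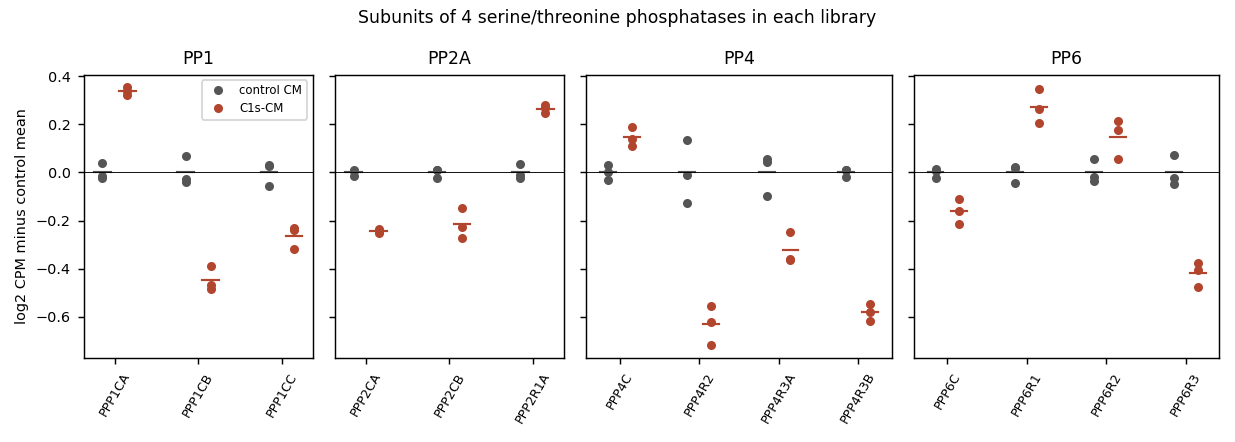
Log2 CPM in each library of the 3 PP1 catalytic subunits, of PPP2CA, PPP2CB and PPP2R1A of PP2A, and of all members named for PP4 and PP6, relative to the mean of the 3 control libraries; grey points are control CM, red points C1s-CM and lines group means. In C1s-CM, PPP1CA, PPP2R1A, PPP4C, PPP6R1 and PPP6R2 lie above the controls and the other genes plotted below them. With offsets PPP1CB, PPP1CC, PPP2CA and PPP6C turn to rises and PPP4C to a fall, each past the threshold. PPP4R3A, PPP6R2 and PPP6R3 also change sign but are not called, and PPP1CC is -0.036 with the longest transcript.

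Of 29 regulatory and scaffold subunits of the PPP family 16 rose and 13 fell (median 0.14, and -0.011 with offsets). For PP1, 10 of 13 regulatory members rose and 3 fell; under total-count scaling 4 were called higher and 3 lower, and with offsets 0 higher and 2 lower. PPP1R12A, the myosin phosphatase targeting subunit MYPT1, showed the largest fall of all members, from 37.98, 43.2 and 39.5 CPM in the control libraries to 22.6, 23.6 and 22.8 CPM in C1s-CM. Its log2 fold change was -0.81 ± 0.072 (SE, adjusted p = 7.69e-10, edgeR), a 1.75-fold fall, and -0.27 ± 0.069 with offsets, still past the threshold. Its relative PPP1R12C rose by 0.27 (-0.022 with offsets, not called). PPP1R15A, the stress-induced subunit GADD34 that directs PP1 to the initiation factor eIF2 alpha, rose by 0.17, while PPP1R15B, the constitutive subunit with the same target, fell by 0.30. With offsets both turned, to -0.053 and 0.071, and neither was called, and PPP1R15A also missed the threshold under total-count scaling (0.044). PPP1R14B, an inhibitor of PP1, rose by 0.37 and PPP1R2, inhibitor-2, fell by 0.41; both have named pseudogenes, 3 and 6, and with offsets both turned, to -0.011 and 0.084, and were not called. The remaining PP1 regulatory members, PPP1R10, PPP1R11, PPP1R13L, PPP1R16A, PPP1R18, PPP1R35 and PPP1R37, rose by 0.12 to 0.35.

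PP2A joins a scaffold, a catalytic subunit and 1 of many regulatory B subunits. PPP2R1A, the alpha scaffold, had 551, 543 and 556 CPM in C1s-CM against 469, 450.0 and 454 CPM in control CM, a rise of 0.26 ± 0.027 that was 0.14 with offsets (adjusted p = 0.000119, edgeR) and 0.10 with the longest transcript. The B56 subunits were divided. PPP2R5B rose by 0.20 and PPP2R5D by 0.14, and PPP2R5A fell by 0.40, PPP2R5C fell by 0.24 and PPP2R5E fell by 0.56. PPP2R5D, B56 delta, had 247, 233 and 247 CPM against 229, 209 and 224 CPM, and PPP2R5E, B56 epsilon, 45.1, 41.4 and 41.6 CPM against 57.99, 63.6 and 66.9 CPM. Under total-count scaling PPP2R5B (0.072) and PPP2R5D (0.011) missed the threshold. With offsets both turned, to -0.042 and -0.018, and were not called, while PPP2R5C turned to 0.22 and was called. PPP2R5E was -0.016 and PPP2R5A -0.23 with these offsets, and neither was called. With the longest transcript PPP2R5A was called, at -0.29, and PPP2R5E was not, at -0.031. Of the calcium-binding B subunits PPP2R3A had 18.3, 17.8 and 19.4 CPM against 28.7, 26.7 and 28.02 CPM and fell by 0.59, PPP2R3C fell by 0.50 and PPP2R3B rose by 0.21. PPP2R3B missed the threshold under total-count scaling (0.082) and with offsets (-0.076). PPP2R3A was -0.35 with offsets, past the threshold, but -0.076 and short of it with the longest transcript.

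PPP2R5D (chr6:42984499-43012342, plus strand) and PPP2R5E (chr14:63371357-63543374, minus strand) are a further pair in which the same protein part is written in codons of unequal GC content. Over 466 aligned codons they share 68.7% of residues. Codons 408 to 427 of PPP2R5D and 349 to 368 of PPP2R5E encode the same residues, with 8 differing bases in capitals.
PPP2R5D: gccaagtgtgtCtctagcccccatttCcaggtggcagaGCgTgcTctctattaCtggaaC
PPP2R5E: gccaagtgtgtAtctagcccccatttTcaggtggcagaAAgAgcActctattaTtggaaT
Over the whole coding sequence, the third codon position has 69.9% GC in PPP2R5D and 40.0% in PPP2R5E.

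PP4 and PP6 also showed catalytic and regulatory subunits that went apart. PP4 acts in DNA repair and centrosome function, and PPP4R2, its core regulatory subunit, fell from 54.4, 65.2 and 58.98 CPM to 40.4, 36.1 and 38.6 CPM in C1s-CM, a change of -0.64 ± 0.066. PPP4R3B fell by 0.58 and PPP4R3A fell by 0.33, beside the rise of PPP4C. For PP6, PPP6R1 had 145, 136 and 131 CPM against 110.4, 116 and 115 CPM and rose by 0.27, PPP6R2 rose by 0.15, and PPP6R3 had 81.6, 77.5 and 83.1 CPM against 104, 114 and 106 CPM and fell by 0.42. The C1s-CM libraries lay wholly on one side of the controls for each of these 6 regulatory subunits, as for 97.2% of all genes. PPP6R2 missed the threshold under total-count scaling (0.024). With offsets none of the 6 was called, and PPP4R2 was -0.0091. The catalytic subunits both turned with offsets and were called, PPP4C to -0.10 and PPP6C to 0.40. The rise of PPP4C had missed the threshold under total-count scaling (0.022).

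The PPM phosphatases are metal-dependent enzymes that work without PPP regulatory subunits, and 3 of 7 rose and 4 fell (median -0.37). PPM1L, which acts on stress kinases including TAK1, had 3.44, 3.86 and 3.53 CPM in C1s-CM against 5.23, 5.45 and 7.40 CPM in control CM and a change of -0.74 ± 0.17, with the lowest counts of all members. PPM1K, the mitochondrial phosphatase of branched-chain keto acid dehydrogenase, had 8.93, 8.90 and 8.37 CPM against 15.01, 14.9 and 12.9 CPM and a change of -0.71 ± 0.11. PPM1A, which dephosphorylates p38 and SMAD proteins, had 33.02, 35.1 and 35.5 CPM against 45.6, 43.9 and 50.3 CPM and fell by 0.43, and PPM1B had 15.2, 12.4 and 13.1 CPM against 17.97, 18.2 and 16.4 CPM and fell by 0.37. PPM1M (0.24), PPM1F (0.15) and PPM1G (0.065) were higher, but under total-count scaling none of the 3 was called higher (PPM1M 0.11, PPM1F 0.026). PPM1M (0.019) and PPM1F (-0.066) were not called with offsets. PPM1G turned to -0.060 under total-count scaling and to -0.11 with offsets, both past the threshold, but was 0.039 with the longest transcript. With offsets the median was -0.066, PPM1A turned to 0.20 and was called, and PPM1K (-0.21) and PPM1L (-0.20) were not called.

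Among non-receptor tyrosine phosphatases 2 rose and 5 fell (median -0.35). PTPN11, the phosphatase SHP2 that is needed for RAS activation by growth factor receptors, had 88.02, 84.8 and 84.5 CPM in C1s-CM against 118, 120.1 and 121 CPM in control CM, a log2 fold change of -0.48 ± 0.040 (adjusted p = 2.52e-10, edgeR). PTPN12, the phosphatase PTP-PEST of focal adhesion proteins, had 53.7, 50.2 and 49.5 CPM against 71.03, 73.1 and 72.8 CPM and fell by 0.50. PTPN4, a phosphatase with FERM and PDZ domains, had 7.32, 7.71 and 8.52 CPM against 12.9, 10.6 and 12.5 CPM and fell by 0.61. PTPN13 fell by 0.35 and PTPN14, a regulator of YAP, fell by 0.17, while PTPN23, of endosomal sorting, rose by 0.30 and PTPN18 by 0.16 (0.038 and short of the threshold under total-count scaling). With offsets the median was 0.0062, and PTPN14 alone was called, turned to 0.13.

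Of the receptor tyrosine phosphatases 3 have a row, of 21 in GENCODE, and PTPRC, the leukocyte marker CD45, is not among them. PTPRG fell from 31, 33.8 and 33.2 CPM in the control libraries to 23.1, 24.1 and 22.04 CPM in C1s-CM (-0.50), and PTPRU rose from 26.99, 26.97 and 28.3 to 33.1, 33.2 and 34.6 CPM, by 0.29. PTPRF, the adhesion-linked phosphatase LAR, was near the smallest change of all members, with 367, 374 and 357 CPM against 352, 345 and 349 CPM and 0.070 ± 0.028. PTPRF turned to -0.056 under total-count scaling and to -0.10 with offsets, the latter past the threshold. It also missed the threshold without the second C1s-CM library (0.054, adjusted p = 0.0973, edgeR) and without the second control library (0.068, adjusted p = 0.0513, edgeR). With offsets PTPRG (-0.073) and PTPRU (0.051) were not called.

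Within a library, the share of 2 paralogs in their summed counts does not depend on the scaling between libraries. It was taken from counts without offsets, so a difference between libraries that follows GC content would enter it. Of 19 pairs listed, 9 have both rows. The share of PPP1CA in PPP1CA and PPP1CB was 87.4, 88.01 and 87.7% in C1s-CM and 81.4, 79.5 and 80.7% in control CM, 87.7 ± 0.30% (SD, n = 3) in C1s-CM and 80.6 ± 0.95% in control CM. With PPP1CC as the partner it was 84.7 ± 0.57% (SD, n = 3) in C1s-CM and 78.5 ± 0.94% in control CM. In percentage points the share of PPP6R1 in PPP6R1 and PPP6R3 moved most. It went from 51.4, 50.5 and 52.01% in the control libraries to 63.9, 63.7 and 61.2% in C1s-CM. The means were 62.98 ± 1.52% (SD, n = 3) in C1s-CM and 51.3 ± 0.78% in control CM. On the log2 ratio MAP3K11 against MAP3K1 moved most, by 0.84, and PPP6R1 against PPP6R3 moved by 0.69. In control CM these 2 subunits had nearly equal counts, and in C1s-CM PPP6R1 had the more. With offsets PPP6R1 changed by 0.011 and PPP6R3 by 0.0071, and neither was called. PPP1CA was 0.063 with offsets, and PPP1CB (0.17) and PPP1CC (0.13) turned to rises.

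The p38 cascade pairs moved in the same way. MAPK11 made up 14.5, 14.2 and 12.6% of MAPK11 and MAPK14 counts in C1s-CM and 10.1, 9.86 and 9.26% in control CM. MAP2K6 made up 7.75, 8 and 8.44% of MAP2K6 and MAP2K3 counts in C1s-CM against 13.7, 11.3 and 13.9%, a difference of -4.93 percentage points that was -1.02 per kilobase of transcript. Both p38 kinases and both of their activators thus shifted toward the paralog whose transcript is richer in GC, as the split of the members by GC content fixes. With offsets MAPK11 was 0.087 and MAPK14 -0.077, and MAP2K3 was -0.051 and MAP2K6 -0.021. None of them was called. PPP2R5D against PPP2R5E was 85.03 ± 0.52% (SD, n = 3) in C1s-CM and 77.8 ± 1.72% in control CM, and MAP3K11 against MAP3K1, which are less alike, 94.8 ± 0.15% (SD, n = 3) in C1s-CM and 91 ± 0.57% in control CM.

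In 2 pairs the groups overlapped. The share of PPP2CA in PPP2CA and PPP2CB was 66.8 ± 1.03% (SD, n = 3) in C1s-CM and 67.3 ± 0.08% in control CM, and that of PPM1A in PPM1A and PPM1B 71.8 ± 2.86% (SD, n = 3) in C1s-CM and 72.6 ± 2.51% in control CM. These are the pairs of which both genes fell. In the other 7 pairs the groups did not overlap and the exact two-sided permutation test on log2 ratios gave p = 0.1, the smallest that 3 against 3 libraries allow, or 0.129 after Benjamini-Hochberg adjustment over the 9 pairs; the 2 overlapping pairs gave exact p of 0.7 and 0.8. None can reach 0.05 in this design. In each of the 7 pairs that were apart, the genes moved in opposite directions, each without overlap between the groups. Their ratios therefore could not overlap and p had to be the smallest possible, so neither adds evidence of a shift. The share moved toward the gene whose transcript is richer in GC, which the split of the members' directions by GC content also fixes. Per kilobase of transcript, the difference in share was 2.74 percentage points for PPP1CA against PPP1CB, 11.1 for PPP6R1 against PPP6R3, 4.08 for PPP2R5D against PPP2R5E and 2.06 for MAP3K11 against MAP3K1.

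**Figure D4:**
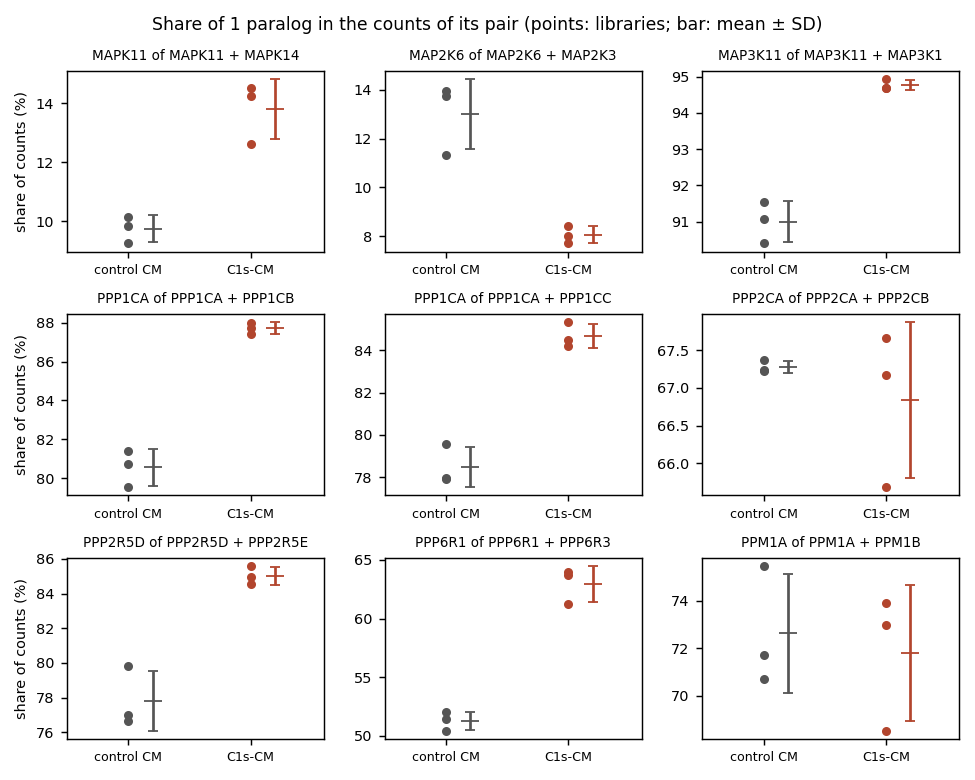
Share of 1 paralog in the summed counts of its pair, in percent, in each library; points are libraries, bars the mean ± SD of 3, grey for control CM and red for C1s-CM, with a vertical axis of its own for each pair that does not start at 0. The groups are apart in 7 pairs and overlap for PPP2CA with PPP2CB and for PPM1A with PPM1B.

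Other genes of the pathway were taken from a list of 68, of which 37 have a row, 17 higher and 20 lower, where 50.9% and 48.5% of all genes were. In the RAS and RAF step 4 were higher and 10 lower. NRAS had 51.5, 49.4 and 53.9 CPM in C1s-CM against 63.2, 64.9 and 68.5 CPM in control CM and fell by 0.35, and HRAS had 143, 137 and 141 CPM against 104, 105 and 106 CPM and rose by 0.42. The exchange factors SOS1 (-0.60) and SOS2 (-0.56), the RAS inhibitor NF1 that SPRED1 recruits (-0.42) and SHOC2, which opens RAF to activation (-0.63), fell. With offsets these 4 were -0.017, -0.059, 0.054 and -0.093, and none was called. ARAF rose by 0.31, and the adaptor SHC1 by 0.11.

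Below the kinases, RPS6KA1 and RPS6KA4, which ERK and p38 activate, rose by 0.24 and 0.43, and RPS6KA3 fell by 0.50. Of 24 transcription factors and targets 11 have a row, 6 higher and 5 lower: FOSL1 (0.23), ETV4 (0.22), JUND (0.16), IER3 (0.12), ELK1 (0.12) and SRF (0.077) rose, and ELK4 (-0.79), ATF2 (-0.55), ELK3 (-0.51), MEF2A (-0.42) and PHLDA1 (-0.42) fell. Of the TAB, TRAF and striatin adaptors of the stress arms and PP2A 4 were higher and 4 lower, with GADD45B (0.27) the largest rise and STRN3 (-0.55) the largest fall. RASSF1 alone of 6 inhibitors has a row (0.15). With offsets 2 of the 37 were called higher and 6 lower, where 14.4% and 11.2% of all genes were. NRAS (0.18), which had fallen, and RPS6KA4 (0.16) were higher. RASAL2 (-0.53), RASA1 (-0.28) and RRAS2 (-0.22) were lower as before, and JUND (-0.16), IER3 (-0.14) and SRF (-0.16), which had risen, turned to lower.

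With offsets 19 of the 87 members, or 21.8%, passed the threshold, beside 25.6% of all genes. Of these, 9 were higher (14.4% of all genes) and 10 lower (11.2%), and the median absolute change of the members went from 0.30 to 0.070. Of the 19 members, 7 kept the direction they had without offsets and 12 turned. Over all genes 1309 were called with offsets, of which 752 kept their direction and 557 turned. With the longest transcript in the offsets 16 members were called, beside 26.6% of all genes, and with both transcripts 13 members were called the same way. Of them 4 kept the direction of the analysis without offsets, MAP3K14 and PPP2R1A higher and PPP1R12A and PPP2CB lower. The 3 called only with the longest transcript, MAP3K11 (0.11), PPP2R5A (-0.29) and PPP2R3C (-0.40), had the sign they had without offsets. The other 9 of the 13 were turned, PPP6C, PPP2CA, PPP1CB, PPP2R5C, PPM1A and PTPN14 to higher and PPP4C, PPP1R18 and PTPRF to lower. For calls with both transcripts no share over all genes was taken.

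**Figure D5:**
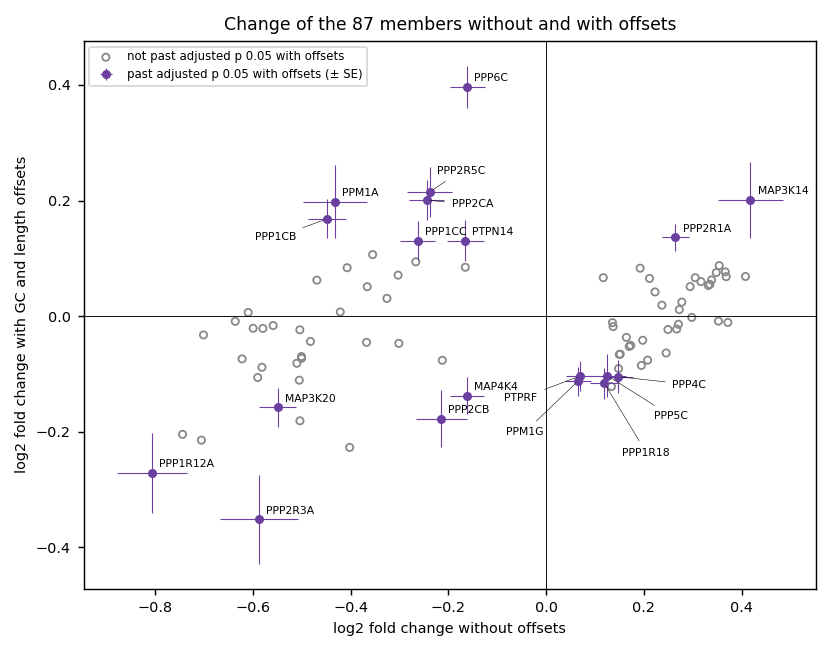
Log2 fold change of C1s-CM over control CM corrected by the GC and length offsets against that without, for the 87 members; filled points with standard errors passed adjusted p 0.05 with offsets, open points did not. Most members lie near 0 on the vertical axis, and PPP6C stands highest, at 0.40.

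Reads of overlapping genes set a further limit. An exon of 34 members overlaps an exon of a gene on the other strand and that of 11 members an exon of another gene on the same strand. The use of strand in counting is not given in the sources used here, so those counts may hold reads of the neighbour. Of the 4 members that kept their direction with both transcripts in the offsets, MAP3K14, PPP2R1A and PPP1R12A overlap a gene on the other strand. PPP2CB has no such overlap.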

How the data were processed

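RNA-seq of 6 HMC3 libraries was read from 1 table. Its raw counts per gene, log2 fold changes and p-values were deposited by the authors; per the submitters' processing notes FastQC 0.11.9, Trim Galore 0.6.7, HISAT2 2.2.1, DESeq2 1.40.2 and GRCh38 were used, while the counter, the annotation and strandedness are not stated there. The largest adjusted p-value in the deposited table is 0.05, so genes had been selected on this comparison.

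Samples were grouped by their treatment labels. Counts were tested over the whole table with edgeR 4.0.16 (R 4.3.3) by the quasi-likelihood test, two-sided, with TMM scaling and filterByExpr, which removed 1 gene, and Benjamini-Hochberg adjustment over 5116 genes. Offsets came from a loess fit (span 0.3) of log2 CPM on transcript GC content and log2 length per library, over 5112 genes. Of 5117 gene IDs 5113 matched GENCODE release 29 (GRCh38). The edgeR fit was tested on simulated data. Alternatives were DESeq2 1.42.0 size factors and Wald test, total counts as the only scaling, other filters, the replicate block, another transcript and each library left out.

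The members and lists were chosen with earlier results of these data known. Named by rule were, in each class, the up to 3 members with the largest change, both genes of each paralog pair and the largest changes past the threshold with offsets, 49 in all; other members and the pathway genes given with values were named after their values were seen. Intervals from counts would cover counting error only.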

Additional observations from a re-analysis of the deposited data

How the results depend on the processing

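Every member was called in the analysis with TMM scaling, and the table's selection on this same comparison limits what any count of calls can show. DESeq2 size factors, the DESeq2 Wald test, no filter on low counts and at least 50 counts in at least 3 libraries kept the direction of all 49 members named by rule and their side of the threshold, except PTPRF, which missed it with DESeq2 size factors (0.055, adjusted p = 0.0645, edgeR) and with the DESeq2 Wald test (0.055, adjusted p = 0.111). Same-numbered libraries deviated from their group means with correlations of -0.14, -0.092 and 0.0012. No pairing by number was seen, though so few libraries cannot exclude it. With the replicate block 86 members were called, 43 higher and 43 lower, and no named member changed its call. No paired reading is drawn from the shared numbers. With the GC and length offsets, 19 members were called, 9 higher and 10 lower. The class medians on the log2 scale were then -0.065 for MAP4K tier, 0.053 for MAP3K tier, -0.057 for MAP2K tier, -0.021 for MAPK tier, 0.042 for MAPK-activated kinases, 0.065 for scaffolds and other MAPK-named genes, 0.069 for dual-specificity phosphatases, 0.063 for PPP catalytic subunits, -0.011 for PPP regulatory and scaffold subunits, -0.066 for PPM phosphatases, 0.0062 for non-receptor tyrosine phosphatases, -0.073 for receptor tyrosine phosphatases, -0.074 for SPRED inhibitors. Named members that turned were MAP2K2 (-0.064), MAP2K3 (-0.051), MAPK8IP2 (-0.014), PPM1A (0.20), PPP1CB (0.17), PPP1CC (0.13), PPP2CA (0.20), PPP2R5C (0.22), PPP2R5D (-0.018), PPP6C (0.40), PPP6R3 (0.0071), PTPN4 (0.0062), PTPRF (-0.10). With the longest transcript in the offsets, 16 members were called, 9 higher and 7 lower. The class medians on the log2 scale were then 0.056 for MAP4K tier, 0.034 for MAP3K tier, -0.045 for MAP2K tier, -0.016 for MAPK tier, -0.00088 for MAPK-activated kinases, 0.014 for scaffolds and other MAPK-named genes, 0.065 for dual-specificity phosphatases, -0.036 for PPP catalytic subunits, -0.031 for PPP regulatory and scaffold subunits, 0.018 for PPM phosphatases, 0.013 for non-receptor tyrosine phosphatases, -0.082 for receptor tyrosine phosphatases, -0.085 for SPRED inhibitors. Named members that turned were MAP2K2 (-0.011), MAP2K3 (-0.076), MAP4K4 (0.068), MAP4K5 (0.079), MAPKAPK3 (-0.00088), PPM1A (0.19), PPM1B (0.067), PPP1CB (0.13), PPP2CA (0.17), PPP2R5C (0.17), PPP2R5D (-0.073), PPP6C (0.34), PTPN4 (0.013), PTPRF (-0.12). With these offsets and the replicate block together, 18 members were called, 9 higher and 9 lower. The class medians on the log2 scale were then -0.068 for MAP4K tier, 0.053 for MAP3K tier, -0.057 for MAP2K tier, -0.018 for MAPK tier, 0.042 for MAPK-activated kinases, 0.065 for scaffolds and other MAPK-named genes, 0.068 for dual-specificity phosphatases, 0.063 for PPP catalytic subunits, -0.015 for PPP regulatory and scaffold subunits, -0.066 for PPM phosphatases, 0.0081 for non-receptor tyrosine phosphatases, -0.074 for receptor tyrosine phosphatases, -0.074 for SPRED inhibitors. Named members that turned were MAP2K2 (-0.063), MAP2K3 (-0.051), MAPK8IP2 (-0.015), PPM1A (0.20), PPP1CB (0.17), PPP1CC (0.13), PPP2CA (0.20), PPP2R5C (0.21), PPP2R5D (-0.018), PPP6C (0.40), PPP6R3 (0.0075), PTPN4 (0.0081), PTPRF (-0.10).

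With total counts as the only scaling 20 members were called higher, the medians were -0.46 for MAP4K tier, -0.59 for MAP3K tier, 0.028 for MAP2K tier, 0.022 for MAPK tier, 0.097 for MAPK-activated kinases, 0.14 for scaffolds and other MAPK-named genes, 0.24 for dual-specificity phosphatases, -0.34 for PPP catalytic subunits, 0.010 for PPP regulatory and scaffold subunits, -0.49 for PPM phosphatases, -0.48 for non-receptor tyrosine phosphatases, -0.056 for receptor tyrosine phosphatases, -0.75 for SPRED inhibitors, and PTPRF turned to -0.056. From counts per kilobase of transcript, the difference in share, C1s-CM minus control CM, was 5.54 percentage points for MAPK11 within MAPK11 and MAPK14, -1.02 percentage points for MAP2K6 within MAP2K6 and MAP2K3, 2.06 percentage points for MAP3K11 within MAP3K11 and MAP3K1, 2.74 percentage points for PPP1CA within PPP1CA and PPP1CB, 4.21 percentage points for PPP1CA within PPP1CA and PPP1CC, 4.08 percentage points for PPP2R5D within PPP2R5D and PPP2R5E. Leaving out each library in turn, 85 to 87 members were called, 42 to 44 higher and 43 lower each time. The ranges were -0.48 to -0.39 for the median of MAP3K tier, 0.23 to 0.31 for the median of scaffolds and other MAPK-named genes, 0.28 to 0.41 for the median of dual-specificity phosphatases, 0.11 to 0.14 for the median of PPP regulatory and scaffold subunits, -0.38 to -0.29 for the median of non-receptor tyrosine phosphatases, -0.85 to 0.14 percentage points for the share of PPP2CA within PPP2CA and PPP2CB, -1.87 to 0.80 percentage points for the share of PPM1A within PPM1A and PPM1B. Without the second C1s-CM library the share of PPP2CA turned to 0.14, and without the first C1s-CM or the third control library that of PPM1A turned to 0.80 and 0.59. The cause of these changes was not tested. With 3 libraries a group no exact test over libraries can reach 0.05.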

Other observations

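Some members lie close together in the genome, and every neighbouring pair within 500 kb rose on both sides with TMM scaling. On chromosome 22 (GRCh38) MAPK12 and MAPK11 are 1888 bases apart and rose by 0.37 and 0.35, and PPP6R2 (0.15) and MAPK8IP2 (0.27) follow. On chromosome 16 PPP4C (0.15) and MAPK3 (0.25) are 28728 bases apart. The other pairs are MAP4K2 (0.12) and PPP2R5B (0.20) on chromosome 11, PPP1R10 (0.14) and PPP1R18 (0.12) on chromosome 6, and PPP1R37 (0.33) with PPP1R13L (0.19) and PPP1R12C (0.27) with PPP6R1 (0.27) on chromosome 19. Of all genes with a transcript GC content of at least 50%, 98.0% were higher, and the transcripts of the genes in these pairs have 54.2 to 67.5% GC. Under total-count scaling MAP4K2 (-0.0088) and PPP1R18 (-0.0066) turned, and these and PPP2R5B (0.072), PPP4C (0.022), PPP1R13L (0.069), PPP6R2 (0.024) and PPP1R10 (0.010) missed the threshold. With offsets none of the genes in these pairs was called higher, and PPP4C (-0.10) and PPP1R18 (-0.12) were called lower.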
